A study of Mus musculus with 8 samples.

Results

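Prm2, Tnp2 and Acrv1 are genes of the haploid sperm head, taken by name as 3 of the 53465 genes in the count table. Each had at least 1 peak of N6-methyladenosine (m6A), a methyl mark on RNA, in the deposited peak lists. The samples came from testes of C57BL/6 mice aged 12 weeks, either wild type (WT) or Alkbh5-/- (KO). Alkbh5 encodes an enzyme that removes m6A from RNA, and the genotype label names no Cre or cell type that would limit the deletion. The sample titles name 2 cell fractions, PA and RO, which the series title gives as pachytene spermatocytes and round spermatids. For each genotype and fraction there was 1 input sample of total RNA and 1 sample immunoprecipitated with an antibody against m6A, 8 in all. How many animals each sample pools, and how the fractions were separated, are not given in the sources used here. With 1 library per group no difference has a replicate check, and every value describes these libraries.

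After meiosis the round spermatid becomes a sperm cell by packing its nucleus and building an acrosome, the secretory cap over the head. Histones are first replaced by transition proteins, of which Tnp2 is one, and then by protamines. Prm2 encodes protamine 2, a small arginine-rich protein that is made as a precursor and trimmed. Acrv1 encodes the acrosomal protein SP-10, which accumulates while the acrosome forms. The messenger RNAs of Prm2 and Tnp2 are transcribed in round spermatids, stored, and translated only later, in elongating spermatids. These genes are widely used as markers of the haploid phase.

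Prm2 and Tnp2 are neighbours on chromosome 16, and Acrv1 lies on chromosome 9. In the RefSeq annotation of GRCm38.p6, the assembly that mm10 corresponds to, Prm2 (ENSMUSG00000038015) spans chr16:10791377-10792105 on the minus strand. Tnp2 (ENSMUSG00000043050) spans chr16:10787935-10788655, on the same strand and 2721 bp away. Prm3, a further gene of this cluster, lies between them, 462 bp from Prm2. Acrv1 (ENSMUSG00000032110) spans chr9:36693220-36698845 on the plus strand. None of the 3 genes overlapped another gene of that table, and the lncRNA 1700027I24Rik on the opposite strand begins 30 bp from the start of Acrv1.

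The 250 bases before each start are shown as a description. Prm2 and Tnp2 had the same order of levels over the libraries, and Acrv1 had another. Peaks of Tnp2 and Acrv1 begin exactly at these starts. A link between these sequences and the levels or peaks was not tested. The windows are chr16:10792106-10792355 and chr16:10788656-10788905, both on the minus strand, and chr9:36692970-36693219 on the plus strand. Capitals mark TATATA on the sense strand and ACACAC on either strand, so that its reverse complement GTGTGT is marked too.
Prm2: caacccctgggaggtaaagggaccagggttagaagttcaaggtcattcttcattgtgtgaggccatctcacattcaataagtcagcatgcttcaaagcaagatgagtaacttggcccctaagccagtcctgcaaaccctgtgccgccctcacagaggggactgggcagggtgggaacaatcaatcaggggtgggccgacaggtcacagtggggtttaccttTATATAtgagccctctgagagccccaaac
Tnp2: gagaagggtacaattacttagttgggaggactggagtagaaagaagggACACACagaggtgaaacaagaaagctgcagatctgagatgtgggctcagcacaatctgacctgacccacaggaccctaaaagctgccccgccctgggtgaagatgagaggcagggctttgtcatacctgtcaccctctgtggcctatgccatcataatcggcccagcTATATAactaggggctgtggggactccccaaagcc
Acrv1: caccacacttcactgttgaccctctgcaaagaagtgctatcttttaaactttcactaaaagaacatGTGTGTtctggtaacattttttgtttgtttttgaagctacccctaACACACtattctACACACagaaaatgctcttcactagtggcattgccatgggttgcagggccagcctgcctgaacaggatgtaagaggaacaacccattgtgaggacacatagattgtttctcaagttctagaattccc

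TATATA, a form of the TATA box, began 29 bases before the start of Prm2 and 35 bases before that of Tnp2, and it was not in the Acrv1 window. It was in 5.25% of the 32817 promoter windows of the RefSeq table, and not in those of Prm1, Prm3 and Tnp1. ACACAC had 3 matches in the Acrv1 window, between 184 and 127 bases before the start. It had 1 match in the Tnp2 window and none in that of Prm2, against 14.9% of all windows with a match. The Prm1 window also had 1 match, and those of Prm3 and Tnp1 had none. TATATA and ACACAC were chosen after these windows were seen, so the shares do not measure how unusual the matches are. Earlier work on the SP-10 promoter described protein binding to ACACAC repeats. The cyclic AMP response element TGACGTCA, its shorter form TGACG on either strand, and TATAAA on the sense strand were in none of the 3 windows. They were in 1.55%, 17.7% and 7.60% of all windows. GGAC, the core of the m6A consensus, was not among the first 50 transcribed bases of any of the 3 genes, and was there in 18.9% of all windows. These matches describe letters and show neither binding nor methylation.

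Total counts of the 4 input libraries lay between 9921365 and 13147239, and the 3 genes together took between 0.0133% (WT PA) and 0.0588% (KO RO) of them. Levels are given as CPM, counts scaled by library size and by TMM factors, which adjust for differences in library composition. The intervals beside them and beside folds are exact 95% intervals (Poisson for a level, binomial for a fold) and cover counting error only. As a check of the fractions, 5 of 15 pachytene markers could be followed. Their summed CPM in WT was 2420 in PA and 2103 in RO, and in KO it was 1338 in PA and 1560 in RO. Sycp2, of the synaptonemal complex, made up most of it, with 1777 CPM in WT PA. Without Sycp2 the sum was 644 and 584 in WT, and 513 and 631 in KO. None of the 5 was at least 2-fold lower in RO in either genotype, so these markers do not show PA and RO to be cleanly separated. Counts of Alkbh5 were not analysed here, because the peak lists pair no identifier with that symbol, so the genotype labels were not checked on it.

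In WT Prm2 had 947 counts in PA and 1226 in RO, or 80.7 CPM (75.7 to 86.0) and 106 CPM (101 to 113). In KO it had 2053 counts in PA and 3730 in RO, or 190 CPM (182 to 198) and 341 CPM (330 to 352). Both KO libraries lay above both WT libraries, and within each genotype RO lay above PA. Among all genes Prm2 ranked 322 by count in KO RO and 2839 in WT PA.

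In PA the level of Prm2 was 2.35-fold higher in KO than in WT (2.18 to 2.54), and in RO it was 3.20-fold higher (3.00 to 3.41). On the log2 scale, with a prior count of 2, these ratios were 1.23 and 1.68. The median absolute deviation, scaled to an SD, of the log2 ratios of all genes with a summed count within a factor of 2 of that of Prm2 was 0.61 in PA and 0.55 in RO. The ratio of Prm2 lay 2.31 and 3.5 of these SDs from their median. Of the genes of like count, 4.05% in PA and 1.02% in RO were as far from the median or farther. These shares describe single genes of single libraries, since the animals, the fractionation and the library all differ between the samples compared. In bulk samples fewer cells of a type and less RNA per cell cannot be told apart.

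In WT Tnp2 had 162 counts in PA and 218 in RO, or 13.8 CPM (11.8 to 16.1) and 18.9 CPM (16.5 to 21.6). In KO it had 599 counts in PA and 1391 in RO, or 55.4 CPM (51.0 to 60.0) and 127 CPM (120 to 134). Its order over the libraries was that of Prm2, with KO RO highest, then KO PA, WT RO and WT PA. The genotype difference was larger than for Prm2. In PA Tnp2 was 4.01-fold higher in KO (3.37 to 4.80) and in RO 6.71-fold higher (5.81 to 7.77), log2 ratios of 1.99 and 2.73. Against genes of like count these lay 2.55 SDs (SD 0.78) and 4.42 SDs (SD 0.64) from the median, with 2.40% and 0.07% of them as far out. In RO the ratio of Tnp2 ranked 119 from the top among 12567 genes that reached 10 CPM in WT or KO.

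Acrv1 followed another order. In WT it had 642 counts in PA and 1563 in RO, or 54.7 CPM (50.6 to 59.1) and 136 CPM (129 to 143). In KO it had 555 counts in PA and 850 in RO, or 51.3 CPM (47.1 to 55.8) and 77.6 CPM (72.5 to 83.0). WT RO was highest, KO RO next, and the intervals of the PA libraries overlapped. In PA the fold of KO over WT was 0.938 (0.835 to 1.05), an interval that holds 1, and scaling by library totals turned its log2 ratio from −0.09 to 0.20. In RO the level in KO was 1.75-fold lower than in WT (1.61 to 1.90), a log2 ratio of −0.81. Genes of like count had an SD of 0.61 in RO, and 28.6% of them were as far from the median as Acrv1. The lower Acrv1 level in KO RO was therefore beyond counting error but well within the spread of other genes.

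**Figure D1:**
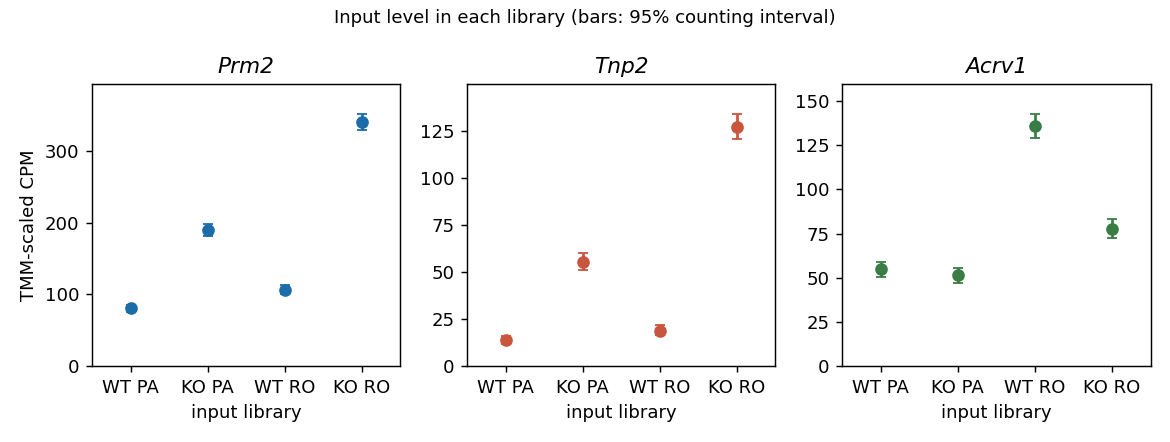
Input level of Prm2, Tnp2 and Acrv1 in TMM-scaled CPM (y axis, from 0) in the 4 input libraries (x axis), 1 point per library with its exact 95% Poisson interval as bars. Prm2 and Tnp2 are highest in KO RO, at 341 and 127 CPM, and Acrv1 is highest in WT RO, at 136 CPM.

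Prm2 and Tnp2 were thus past 2-fold higher in KO in both fractions, and Acrv1 in neither, where here and in all counts 2-fold means a log2 ratio, prior count included, of at least 1. Of the genes that reached 1 CPM in either genotype, 23.8% were at least 2-fold higher and 19.9% at least 2-fold lower in KO in PA, and 23% and 19% in RO. In numbers these were 5799 higher and 4831 lower in PA, a split that became 7375 and 3500 with library totals. Of the genes that reached 10 CPM, as the 3 genes did, the shares were 13.3% higher and 13% lower in PA and 11.8% higher and 12.9% lower in RO. A gene past 2-fold was therefore common in these libraries, and 737 of 13677 genes that reached 10 CPM in any library (5.39%) were at least 2-fold higher in KO in both fractions.

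The stage comparison asks whether the haploid genes were higher in the RO than in the PA fraction. The pachytene markers did not show these fractions to be cleanly separated, so the ratios compare fractions rather than pure cell types. All 3 were higher in RO in both genotypes, by less than 2.5-fold. In WT the level in RO was 1.32-fold that in PA for Prm2 (1.21 to 1.44), 1.37-fold for Tnp2 (1.11 to 1.69) and 2.48-fold for Acrv1 (2.26 to 2.72). In KO it was 1.79-fold for Prm2 (1.70 to 1.89), 2.29-fold for Tnp2 (2.08 to 2.53) and 1.51-fold for Acrv1 (1.36 to 1.69). Acrv1 was thus the member past 2-fold in WT, and Tnp2 in KO.

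Of the genes that reached 1 CPM, 21.6% of genes were at least 2-fold higher and 18.7% lower in RO in WT, and 17.5% and 15.2% in KO. Of those that reached 10 CPM the shares were 11.5% and 9.64% in WT, and 5.21% and 5.64% in KO. Against genes of like count, the WT ratio of Prm2 lay 0.86 SDs from the median and that of Tnp2 0.52 SDs, with 40.6% and 59.5% of those genes as far out. In WT the stage difference of these genes was not larger than that of many other genes. The WT ratio of Acrv1 lay 2.66 SDs out (3.31% as far). In KO the ratios lay 2.90 SDs out for Prm2 (2.12% as far), 3.18 for Tnp2 (0.98%) and 1.5 for Acrv1 (15.9%). Each library enters a genotype and a stage comparison, so these comparisons share their libraries.

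The stage difference of log2 ratios, KO minus WT, was 0.44 for Prm2 (0.30 to 0.59), 0.74 for Tnp2 (0.42 to 1.07) and −0.71 for Acrv1 (−0.92 to −0.51), with normal 95% counting intervals that leave out 0. Over the 13677 genes that reached 10 CPM in any library the SD of this difference was 0.75. For Prm2, 53.6% of these genes were as far from the median, for Tnp2 33.5% and for Acrv1 36.9%. The difference between genotypes in the stage ratio was thus beyond counting error for each gene, and not beyond the spread of these 13677 genes. Unlike the ratios above, it was not set against genes of like count.

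**Figure D2:**
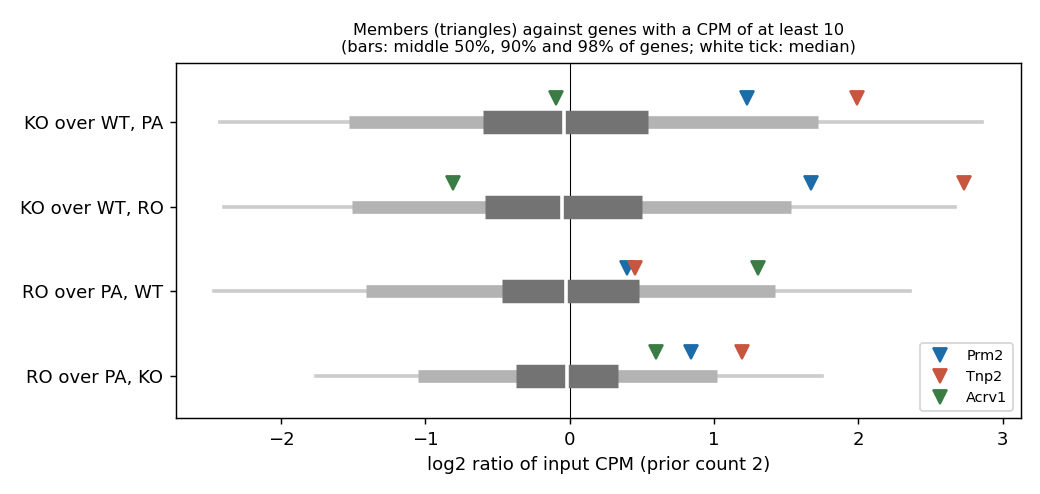
Log2 ratio of input CPM (x axis) of Prm2, Tnp2 and Acrv1 (triangles) in the 4 comparisons (y axis), over bars that hold the middle 50%, 90% and 98% of genes that reached 10 CPM in either of the libraries compared. Tnp2 at 2.73 in RO lies beyond the 98% bar, whereas the WT stage ratios of Prm2 and Tnp2, 0.40 and 0.45, lie inside the 50% bar.

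The profiles of the 3 genes were compared as log2 CPM less the gene's mean over the 4 libraries, by the root mean square difference. It was 0.47 between Prm2 and Tnp2, for which Tnp2 ranked 440 among 7052 genes by closeness to Prm2, 1.01 between Prm2 and Acrv1 and 1.45 between Tnp2 and Acrv1. The genes closest to Prm2 among 7052 with a symbol that reached 10 CPM were Actl7a (0.06), an actin-like protein of the sperm head, Ropn1 (0.08), a protein of the sperm tail sheath, and 1700001L19Rik (0.08). Actl7a had 62 counts in PA and 89 in RO in WT, and 152 and 276 in KO. Closest to Tnp2 were 4930412B13Rik (0.10), Ppp2r2c (0.13) and Rpl29-ps2 (0.21), each with 31 counts or fewer in the WT libraries. Closest to Acrv1 were 4930488N24Rik (0.05), Gm5577 (0.05) and Pax5 (0.07). Pax5, known as a B cell transcription factor, had 378 counts in PA and 880 in RO in WT, and 293 and 449 in KO.

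Prm3, between Prm2 and Tnp2 in the cluster, did not follow them. In WT it had 385 counts in PA and 806 in RO, and in KO 370 and 498. Its profile difference was 0.91 from Prm2 and 1.37 from Tnp2, but 0.13 from Acrv1, for which it ranked 32 among the 7052 genes. In RO its log2 ratio of KO over WT was −0.62, against 1.68 and 2.73 for the genes on either side. In PA it was 0.06. Acr, the gene of the acrosomal protease acrosin, also lay near Acrv1 (0.21, rank 118), with 515 counts in PA and 845 in RO in WT, 339 and 525 in KO, and a ratio of −0.61 in RO.

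The wider set of nuclear condensation genes held 15 names, of which 9 had a symbol in the peak lists, so that Prm1 and Tnp1 could not be followed. In PA 4 of the 9 were at least 2-fold higher in KO and 1 lower, with a median log2 ratio of 0.23. In RO 3 were higher and none lower, with a median of 0.44. The 9 include Prm2 and Tnp2, which are among those higher in both fractions and enter all medians of this list. The others higher were H1fnt and Camk4 in PA, and H1fnt in RO. Over all genes that reached 1 CPM the median was 0.04 in both, and 23.8% were higher and 19.9% lower in PA, and 23% and 19% in RO. At 10 CPM the counts of the list were the same. The shares of all genes were then 13.3% higher and 13% lower in PA, and 11.8% and 12.9% in RO. Every gene with a symbol has a peak in some list, here and in the lists below. The shares of all genes carry no such limit. Prm2, H1fnt, Prm3 and Pygo2 had peaks in KO lists only, so they could be followed only through those lists. Prm2 and H1fnt are among those higher in KO, so the counts and the shares are not like for like. H1fnt, a testis-specific linker histone, had the highest ratio in PA, with 119 counts in WT and 1236 in KO (11.3-fold, 9.33 to 13.7). In RO it had 381 and 1675 counts (4.62-fold, 4.13 to 5.18), past 2-fold like Prm2 and Tnp2. Camk4, a kinase that acts on protamine, was 2.75-fold higher in KO in PA (2.24 to 3.39) and 1.58-fold in RO. Brdt, a bromodomain protein that binds acetylated histones, was lowest in PA, 2.48-fold lower in KO. Chd5, a chromatin remodeller, had log2 ratios of 0.23 in PA and −0.44 in RO.

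Between stages, 3 of the 9 condensation genes were at least 2-fold higher in RO in WT (Prm3, H1fnt and Chd5). In KO 1 was higher (Tnp2), and none was lower in either genotype. Of all genes that reached 1 CPM 21.6% and 17.5% were higher, and at 10 CPM 11.5% and 5.21%. Camk4 had a WT fold of 2.01 but a log2 ratio of 0.99 with the prior count, and with library totals the WT count was 4. The median log2 ratio was 0.45 in WT and 0.42 in KO, against 0.01 for all genes in both. H1fnt had the highest ratio in WT, 3.26-fold (2.65 to 4.04), and Tnp2 in KO.

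Of 24 acrosome genes 10 had a symbol. In PA 2 were at least 2-fold higher in KO and none lower (median log2 ratio 0.04), and in RO 3 were higher and 1 lower (median −0.16). Of all genes that reached 1 CPM, 23.8% were higher and 19.9% lower in PA, and 23% and 19% in RO. At 10 CPM the acrosome counts were the same. The shares of all genes were then 13.3% higher and 13% lower in PA, and 11.8% and 12.9% in RO. Hyal5, a sperm hyaluronidase, and Actl7a were past 2-fold higher in both fractions, with log2 ratios of 1.87 and 1.38 in PA and 1.14 and 1.68 in RO. Of genes of like count, 6.04% in PA and 18.1% in RO were as far from the median as Hyal5. For Actl7a, with 62 and 89 counts in WT, these shares were 28.6% and 9.19%. Hyal5 and Spam1 belong to a family of similar genes, and how shared reads were counted is not stated. Spata16, a Golgi protein of the forming acrosome, was lowest in both fractions, 1.82-fold lower in PA and 2.37-fold lower in RO (2.21 to 2.54). Acrbp, which binds proacrosin, was 1.68-fold lower in RO. The acrosome genes thus lay on both sides of 0, with Acrv1 among those lower in KO.

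Between stages 9 of the 10 acrosome genes had ratios above 0 in WT and 7 in KO. At least 2-fold higher in RO were 3 in WT (Acrv1, Spam1 and Fam170b) and 1 in KO (Actl9), with none lower. Of all genes that reached 1 CPM 21.6% and 17.5% were higher, and at 10 CPM 11.5% and 5.21%. Gopc, a Golgi protein needed for the acrosome, was lowest in both genotypes, with log2 ratios of −0.26 and −0.67.

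Of 9 sperm tail genes 5 had a symbol, and the 2 that were past 2-fold higher in KO in both fractions were Odf1 and Akap4. Of the 13677 genes that reached 10 CPM in any library, 5.39% were higher in both fractions. Odf1 had log2 ratios of 1.67 in PA and 1.62 in RO, and Akap4 of 2.22 and 1.57. Akap3 was past 2-fold in PA (1.59) and not in RO (0.69). Tcp11 was lowest, at −0.94 and −0.67. These ratios stand between those of Prm2 and Tnp2 for Odf1 in PA, and near that of Prm2 in RO.

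**Figure D3:**
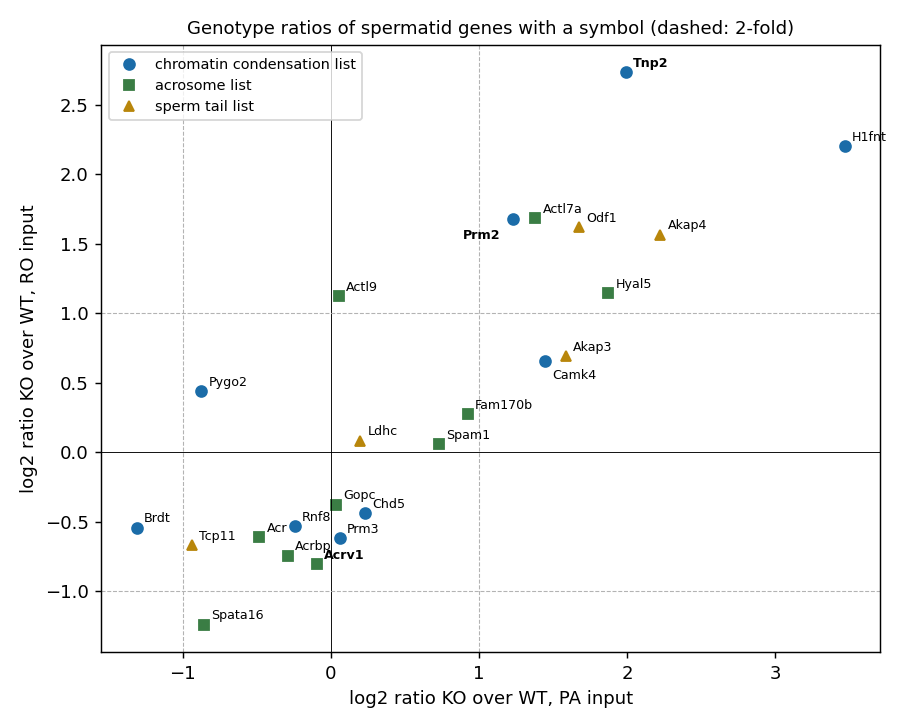
Log2 ratio of KO over WT in PA input (x axis) and RO input (y axis) for the genes with a symbol in the condensation (circles), acrosome (squares) and sperm tail (triangles) lists, 1 point per gene, with dashed lines at 2-fold. Prm2 and Tnp2 stand at the upper right with H1fnt, Actl7a, Hyal5, Odf1 and Akap4, while Acrv1 stands below 0 on both axes with Acr, Acrbp and Spata16, though its PA ratio of −0.09 is 0.20 with library totals.

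Markers of other testis cells also differed between the libraries. For Leydig cells 3 of 7 markers could be followed, with a summed CPM of 155 in PA and 47.7 in RO in WT, and 45.3 and 17.3 in KO. All 3 were at least 2-fold lower in KO in PA, and 2 in RO, against 19.9% and 19% of all genes. Of genes that reached 10 CPM, which the marker Lhcgr did not in RO, the shares were 13% and 12.9%. For Sertoli cells (4 of 8) the sum was 239 and 172 in WT, and 318 and 198 in KO. For peritubular, endothelial and macrophage cells (5 of 9) it was 368 and 188 in WT, and 371 and 364 in KO. In RO 4 of these 5 were at least 2-fold higher in KO, against 23% of all genes and 11.8% of those that reached 10 CPM. Among them Pecam1 and Kdr had a peak in the KO PA list only and could be followed only through it. For spermatogonia (3 of 7) the sum was 30.5 and 23.5 in WT, and 60.4 and 42.4 in KO. None of these markers was at 0 in any library, but some were near it. Gfra1, of spermatogonia, had 2 counts in WT RO, Lhcgr had 7 in KO RO and Csf1r had 25 in WT PA. The part of these cells in the differences of Prm2, Tnp2 and Acrv1 was not tested.

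The peak lists ask where the RNAs of these genes carry m6A and whether this differs without the demethylase. The position, class, false discovery rate (FDR) and fold, the ratio of immunoprecipitated to input RNA, are the authors'. There were 5 peaks in all, 1 in Prm2 (KO PA), 3 in Tnp2 (1 in WT PA and 2 in WT RO) and 1 in Acrv1 (WT RO). The KO RO list had none, although the input counts of Prm2 and Tnp2 were highest in that library. Thus Prm2 had a peak in 1 KO list only, and Tnp2 and Acrv1 had peaks in WT lists only.

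Of the genes that reached 10 CPM in the matching input, 34.8% had a peak in PA and 40.2% in RO in WT, and 43.5% and 39.3% in KO, so that both a peak and its absence were common. Among genes with an input count within a factor of 2 of that of Prm2, 64.7% had a peak in KO PA, where Prm2 had one, and 64.5% in KO RO, where it had none. For Tnp2 these shares were 21.3% in WT PA and 29.9% in WT RO, where it had peaks, and 48.0% in KO PA and 52.4% in KO RO, where it had none. For Acrv1 it was 52.8% in WT RO, where it had a peak, and between 35.7% and 47.0% in the other lists. Of the 13677 genes that reached 10 CPM in any library, 1136 (8.31%) had peaks in WT lists only and 1244 (9.10%) in KO lists only. Of the 13677 genes, 737 (5.39%) had an input at least 2-fold higher in KO in both fractions. Of these 737 genes, 41 had peaks in WT lists only, Tnp2 among them. This is not a larger share than the 8.31% of all 13677.

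The Prm2 peak in the KO PA list lay at chr16:10791410-10791842, in 2 exon blocks of 225 and 103 bp around a gap of 105 bp, and was classed as coding sequence. It began 263 bp from the start of the gene and ended 33 bp before its end. Its fold was 7.61, above 24.8% of the 9931 peaks of that list, and the log10 of its FDR was −45.3. It overlapped no peak of another list.

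The peaks of Tnp2 were of low fold. In WT PA a peak classed as 3′ untranslated region lay at chr16:10787994-10788309, with blocks of 100 and 45 bp around a gap of 171 bp. Its fold was 1.87, above 0.813% of the 7502 peaks of the list, and its FDR was 0.0692, so that it did not pass an FDR of 0.05. In WT RO a peak of the same class lay at chr16:10787965-10788309, with blocks of 129 and 45 bp around the same gap, a fold of 2.43 and an FDR of 0.000295. Both shared 145 bp, the whole exonic length of the WT PA peak. They ended 59 and 30 bp before the end of the gene.

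The further Tnp2 peak of WT RO lay at the other end of the gene, at chr16:10788540-10788655. It was a single block of 116 bp classed as coding sequence, began at the RefSeq start, and had a fold of 4.77, above 7.93% of the 9418 peaks of the list. It overlapped no peak of another list.

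The Acrv1 peak of the WT RO list lay at chr9:36693220-36694246, in blocks of 141 and 39 bp around a gap of 847 bp. It began at the RefSeq start and was classed by the authors as exon. Its fold of 15.5 lay near the median of the list, 15.1. The log10 of its FDR was −12.6.

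Of the 5 peaks 4 had 2 blocks around a gap. The share of peaks with 2 blocks was 11.2% in PA and 11.4% in RO in WT, and 15.9% and 13.2% in KO. The whole genes span 729 bp for Prm2, 721 bp for Tnp2 and 5626 bp for Acrv1. Other genes of the sperm head had peaks as well. Prm3 had a peak in both KO lists and none in WT, both beginning at its RefSeq start (fold 27.8 in KO PA and 3.17 in KO RO). H1fnt also had a peak in both KO lists and none in WT (fold 19.7 and 6.10). The input of H1fnt was 119 counts in PA and 381 in RO in WT, against 1236 and 1675 in KO. Whether the lower input bears on the missing WT peaks was not tested. Acr had 1 peak in KO PA and 2 in WT RO. Within the condensation list 5 of 9 genes had a peak in PA and 4 in RO in WT, and 8 and 7 in KO. Within the acrosome list 3 of 10 had one in PA and 9 in RO in WT, and 8 and 7 in KO. All of these genes have a peak in some list, since symbols come from the lists. Of the 8733 genes with a symbol, 53.9% had a peak in PA and 66.4% in RO in WT, and 69.7% and 63.9% in KO.

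**Figure D4:**
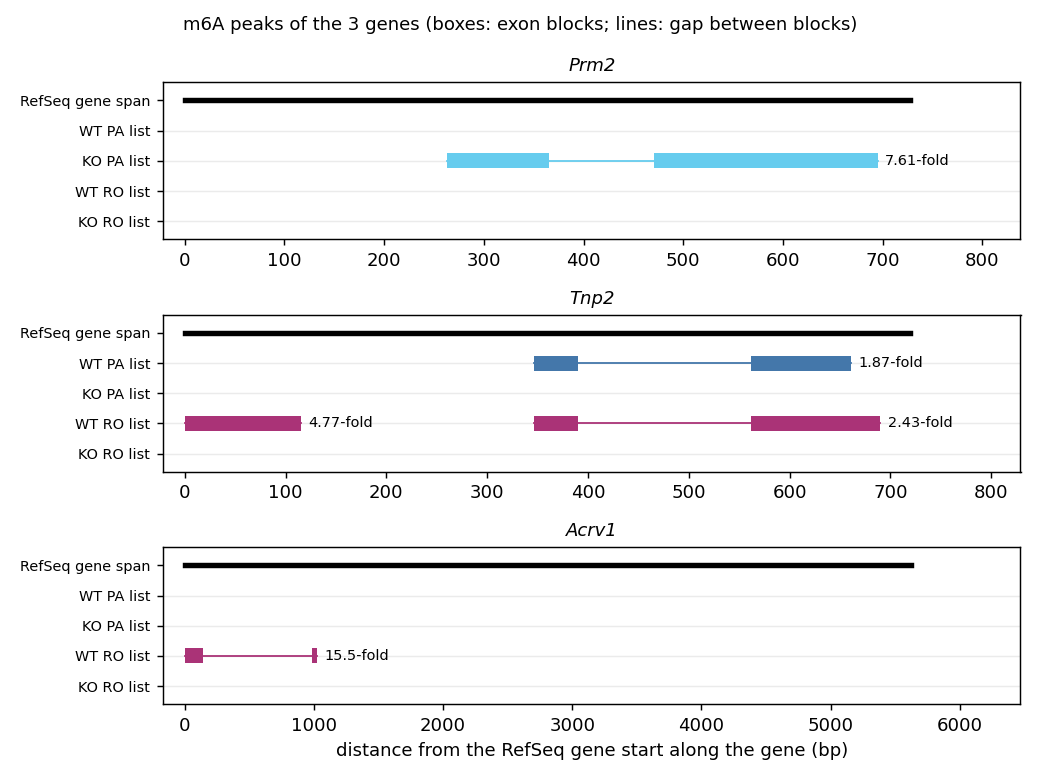
Peaks of Prm2, Tnp2 and Acrv1 by list (rows) along the gene, as distance in bp from the RefSeq start (x axis, separate scale per gene), with boxes for exon blocks, thin lines for the gap between them, black lines for the gene span and the authors' fold beside each peak. The Tnp2 peaks of WT PA and WT RO near the end of the gene share 145 bp, and a peak of Tnp2 and the peak of Acrv1 begin at the start of their gene.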

How the data were processed

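Input and immunoprecipitated RNA of each genotype and cell fraction was sequenced, 1 sample per group, and groups were read from the sample titles. The authors deposited whole-number counts per Ensembl gene for the 4 input libraries, not normalized, and 4 peak lists. A peak carries, per the file headers, a p-value, log10 scores for the p-value and false discovery rate, and a fold, the ratio of immunoprecipitated to input RNA. Per the submitters' processing notes cutadapt 2.5, HISAT2 2.1.0 and HOMER 4.10.4 were used and the build was mm10. The counting tool, the peak caller and the handling of strand and duplicates are not given in the sources used here. TMM factors (edgeR 4.0.16 in R 4.3.3) gave effective library sizes and from them the CPM, and log2 ratios used a prior count of 2. With 1 library per group nothing was tested, and the text gives counting intervals of 95% and the spread of all genes. Sequences and gene spans came from RefSeq tables of GRCm38.p6, matched by symbol for the 3 genes. Scaling (DESeq2 1.42.0 size factors among others), filters and peak limits were varied. Scripts were tested on simulated data. The genes, the lists and the rule for named genes were chosen with earlier results of these data known. The motifs TATATA and ACACAC and the genes Camk4, Chd5, Spam1, Fam170b, Akap3, Acrbp, Actl9 and Crem were chosen after their values were seen. The rule for named genes took the 3 genes, the highest and lowest ratio of each list, the partner genes Prm3 and Acr, and for each of the 3 genes the 3 genes of most similar profile. All else was computed in Python 3.11.15, with intervals from scipy 1.17.1.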

Additional observations from a re-analysis of the deposited data

Results flagged for a closer look

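Some genes of the lists around Prm2, Tnp2 and Acrv1 had ratios of opposite sign in the groups compared, with counting intervals on opposite sides of no change. The differences were not tested. The log2 ratio of KO over WT was 0.23 in PA and −0.44 in RO for Chd5, −0.88 and 0.44 for Pygo2, 0.18 and −0.44 for Kif17, and 0.14 and −0.26 for Tdrd7. The log2 ratio of RO over PA was −0.25 in WT and 0.52 in KO for Brdt, −0.89 and 0.42 for Pygo2, −0.31 and 0.35 for Ybx2, and −0.10 and 0.21 for Tdrd6. Of 13677 genes that reached 10 CPM in any library the same held for 13.3% in the genotype contrast and 15.6% in the stage contrast. Neither Prm2, Tnp2 nor Acrv1 was among them.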

How the results depend on the processing

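No paired analysis was possible because each group has 1 sample. Of the 12 genotype and stage ratios of Prm2, Tnp2 and Acrv1, all but that of Acrv1 in PA kept their sign and their side of 2-fold under 4 other scalings and a prior count of 0.5. With library totals, which raise the median ratio of KO over WT by 0.29 in PA and 0.18 in RO, the log2 ratio of Prm2 was 1.52 in PA and 1.85 in RO, that of Tnp2 2.28 in PA, and that of Acrv1 0.20 in PA and −0.63 in RO. Totals without the 20 genes of highest count gave 1.44 and 1.87 for Prm2 and 0.12 and −0.62 for Acrv1. The acrosome genes at least 2-fold higher in KO in PA numbered 4 with library totals, against 2. At a CPM of at least 10 in place of 1, genes past 2-fold numbered 1675 higher and 1640 lower in KO in PA (against 5799 and 4831), 1478 and 1616 in RO (5703 and 4711), 1412 higher and 1181 lower in RO in WT (5176 and 4474), and 650 and 703 in KO (4341 and 3765), where no filter gave 7017 higher. An FDR under 0.05 left 0 Tnp2 peaks in WT PA, and a fold of at least 5 left 0 in WT PA and 0 in WT RO. A reciprocal overlap of 50% kept both shared Tnp2 peaks. The counting intervals cover depth only, and 1 library per group does not measure the spread between libraries.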

Other observations

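Regulators of haploid transcription and of stored messenger RNA were also followed, 9 of 14 with a symbol. In PA 1 was at least 2-fold higher in KO and 2 lower, and the same counts held in RO. Of all genes that reached 1 CPM, 23.8% were higher and 19.9% lower in PA, and 23% and 19% in RO. At 10 CPM these shares were 13.3% and 13% in PA, and 11.8% and 12.9% in RO. Taf7l, a testis-specific partner of the basal transcription machinery, was the higher one, with 293 counts in PA and 446 in RO in WT, and 740 and 980 in KO. Taf7l had a peak in the KO PA list only and was followed only through that list. The shares of all genes carry no such limit, so the count of higher genes and these shares are not like for like. Ybx2, which binds stored protamine messenger RNA, had 5507 and 4351 counts in WT and 1415 and 1832 in KO. Tdrd6, a protein of the chromatoid body, had 22648 and 20795 in WT and 6270 and 7366 in KO. Crem, the activator that acts on cyclic AMP response elements in spermatids, had log2 ratios of 0.26 in PA and −0.06 in RO. Ybx2 and Tdrd6 were thus lower in both KO libraries. Of genes of like count, 2.18% in PA and 13.6% in RO were as far from the median as Ybx2. For Tdrd6 these shares were 5.31% and 8.73%. A link of these genes to the levels of Prm2 and Tnp2 was not tested.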
